A study of Homo sapiens with 12 samples.

Results

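The regions described here were read in m7G immunoprecipitates of THP-1 RNA and hardly at all in the matching input. THP-1 is a line of human monocytic leukemia cells, and the phorbol ester PMA makes them attach and take on macrophage features. The members were chosen by 2 sums of raw reads: at least 30 reads over the 6 immunoprecipitated libraries and at most 10 over the 6 input libraries. This held for 716 of the 9958 regions in the deposited table (7.19%), and for 11.5% of the 6204 regions with at least 30 immunoprecipitate reads. All cells received PMA at 100 ng/ml for 48 hours, and polyadenylated RNA was taken on oligo(dT) beads and sequenced on a DNBSEQ-T7. Library names gave the groups. NC stands for the control cells, wildtype THP-1 in the series' own words, and KD for their shMETTL1 derivatives, in which a short hairpin targets METTL1. IP marks an immunoprecipitate and IN, by its name, the input. Each combination of KD or NC with IP or IN had 3 libraries. The sources used here do not say whether the libraries came from separate cultures, how many hairpins were used or whether a line is 1 clone, so p-values measure the spread among these samples, which may be technical.

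7-methylguanosine (m7G) is the base that caps the 5′ end of messenger RNA, and it also occurs inside tRNAs and some messenger RNAs. METTL1, with its partner WDR4, is an enzyme that places internal m7G. In a methylated RNA immunoprecipitation (meRIP), RNA fragments bound by an antibody to the modified base are sequenced beside the unselected fragments, the input, and a region with many IP reads and few input reads is one that the antibody step concentrated.

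The sequences below show where members lie against a gene's annotated start, because members cluster at gene starts and many begin exactly at one. Each is the GRCh38.p14 RefSeq window of 250 bases before to 50 bases after a gene's start, on the gene's strand, with the bases inside the member in capitals. The members at HOXD13, USP27X, DACH1 and POU4F2 begin at the start itself, so their capitals are the first 50 bases from that start. Those at FGF2 and KCMF1 begin upstream of the listed start, that at ITPR1 begins 3 bases before it, and the SLC17A7 member covers the whole window. HOXD13, USP27X, DACH1 and FGF2 are among the members lower in KD IP, KCMF1 and ITPR1 among those higher, and POU4F2 and SLC17A7 among those that did not pass the test. The windows lie at chr2:176092471-176092770 (HOXD13), chrX:49879234-49879533 (USP27X), chr13:71867155-71867454 (DACH1), chr4:146638643-146638942 (POU4F2), chr4:122826581-122826880 (FGF2), chr2:84970911-84971210 (KCMF1), chr3:4493098-4493397 (ITPR1) and chr19:49441478-49441777 (SLC17A7). DACH1 and SLC17A7 are on the minus strand and the others on the plus strand.
HOXD13: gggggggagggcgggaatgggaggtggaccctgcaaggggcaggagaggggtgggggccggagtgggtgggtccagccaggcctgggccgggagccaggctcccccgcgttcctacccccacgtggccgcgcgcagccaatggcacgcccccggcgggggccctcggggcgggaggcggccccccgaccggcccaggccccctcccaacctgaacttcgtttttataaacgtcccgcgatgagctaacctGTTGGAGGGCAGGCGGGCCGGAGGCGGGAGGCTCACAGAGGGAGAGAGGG
USP27X: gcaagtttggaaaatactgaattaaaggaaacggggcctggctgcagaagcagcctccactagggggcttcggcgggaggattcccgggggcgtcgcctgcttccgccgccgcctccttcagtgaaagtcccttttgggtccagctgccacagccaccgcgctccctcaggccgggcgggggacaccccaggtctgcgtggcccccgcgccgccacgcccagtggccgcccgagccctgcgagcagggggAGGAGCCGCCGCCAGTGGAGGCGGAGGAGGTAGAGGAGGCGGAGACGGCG
DACH1: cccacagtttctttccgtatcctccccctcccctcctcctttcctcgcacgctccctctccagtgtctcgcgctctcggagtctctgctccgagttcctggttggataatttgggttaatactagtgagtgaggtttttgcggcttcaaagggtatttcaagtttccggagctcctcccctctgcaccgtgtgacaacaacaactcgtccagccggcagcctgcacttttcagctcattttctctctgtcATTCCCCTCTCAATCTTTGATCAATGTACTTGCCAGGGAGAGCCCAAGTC
POU4F2: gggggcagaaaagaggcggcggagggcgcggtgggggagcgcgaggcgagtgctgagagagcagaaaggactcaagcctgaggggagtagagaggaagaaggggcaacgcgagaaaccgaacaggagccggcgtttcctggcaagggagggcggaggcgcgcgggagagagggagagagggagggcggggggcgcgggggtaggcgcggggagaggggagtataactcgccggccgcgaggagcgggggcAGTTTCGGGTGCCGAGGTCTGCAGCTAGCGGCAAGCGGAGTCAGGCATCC
FGF2: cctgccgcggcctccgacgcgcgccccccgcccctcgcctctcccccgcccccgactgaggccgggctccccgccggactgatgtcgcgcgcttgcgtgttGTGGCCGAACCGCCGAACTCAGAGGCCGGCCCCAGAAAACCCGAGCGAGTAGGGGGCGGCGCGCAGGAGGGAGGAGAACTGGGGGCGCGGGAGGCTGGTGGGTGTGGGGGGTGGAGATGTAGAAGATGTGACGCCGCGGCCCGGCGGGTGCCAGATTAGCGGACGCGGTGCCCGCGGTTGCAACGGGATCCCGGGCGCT
KCMF1: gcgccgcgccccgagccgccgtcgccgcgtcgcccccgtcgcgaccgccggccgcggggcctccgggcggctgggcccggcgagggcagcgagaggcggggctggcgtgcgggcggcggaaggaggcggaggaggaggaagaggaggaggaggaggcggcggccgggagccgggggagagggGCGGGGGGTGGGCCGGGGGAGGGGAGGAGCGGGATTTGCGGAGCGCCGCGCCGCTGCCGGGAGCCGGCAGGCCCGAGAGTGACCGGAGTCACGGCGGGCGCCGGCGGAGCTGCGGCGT
ITPR1: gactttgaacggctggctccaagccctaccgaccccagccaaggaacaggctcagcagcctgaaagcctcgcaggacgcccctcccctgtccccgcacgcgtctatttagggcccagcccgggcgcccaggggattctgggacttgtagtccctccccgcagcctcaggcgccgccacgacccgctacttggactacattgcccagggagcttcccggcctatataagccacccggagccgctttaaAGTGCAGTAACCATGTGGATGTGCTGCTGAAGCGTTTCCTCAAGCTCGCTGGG
SLC17A7: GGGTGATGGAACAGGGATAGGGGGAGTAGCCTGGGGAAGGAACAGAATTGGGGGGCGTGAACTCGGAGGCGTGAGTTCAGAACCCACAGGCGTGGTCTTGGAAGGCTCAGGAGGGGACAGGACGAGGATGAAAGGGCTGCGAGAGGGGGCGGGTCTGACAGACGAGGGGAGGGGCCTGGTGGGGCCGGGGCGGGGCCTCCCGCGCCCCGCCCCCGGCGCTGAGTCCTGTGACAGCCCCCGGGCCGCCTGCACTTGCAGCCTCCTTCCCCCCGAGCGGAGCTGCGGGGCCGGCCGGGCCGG

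The G and C content of these windows was 74.0% at HOXD13, 83.0% at KCMF1 and 53.0% at DACH1. The letters GGGCGG, searched on both strands with no other motif beside them, occur in the windows of HOXD13, USP27X, POU4F2, FGF2, KCMF1 and SLC17A7 and not in those of DACH1 and ITPR1. Of the 464 genes that were the only protein-coding gene under a member, 383 (82.5%) had a window in the RefSeq table. Their median G and C content was 68.3%, the median number of CpG dinucleotides was 28, and 78.3% held GGGCGG. The genes of the other regions with at least 30 IP reads had a median of 66.7%, the same median of 28 and a share of 75.1%, so the members' genes differ little from other genes in the table. Over all 27305 windows of the RefSeq table the median was 58.3% with 14 CpG dinucleotides, and 44.6% held the letters. A match describes the letters in the window and marks no binding site.

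Before the results, the libraries were set against their labels. Reads in all regions summed to between 1476384 and 1888972 in the IP libraries and between 907024 and 1105477 in the input libraries, sums that cover peak regions and not the whole sequencing. Neither METTL1 nor WDR4 had a region in the table, so the targeted gene was not measured here. Of 22 macrophage and monocyte markers, 14 had a region, among them CD68, LYZ, SPI1 and MMP9, while CD14, CSF1R, TYROBP and CD163 were among those without one. The regions of these markers summed to between 5940 and 6421 CPM (reads scaled to the library's reads in regions) in KD IN and between 2855 and 3303 in NC IN. A list of 14 genes known from the HEK293 line, written with earlier results of these data known, had 12 genes with a region, and ran the other way. It summed to between 13630 and 14260 CPM in NC IN and between 2792 and 3281 in KD IN, and AKAP12, KRT18, LIN28B, MAP9 and PNMA8A were at 0 in all KD IN libraries. The NC IP libraries had 15010 to 16430 for it and the KD IP libraries 2221 to 2525. The lymphoid, erythroid and hepatocyte lists had no region. The epithelial list had KRT18 alone and the neuron list RBFOX3 alone. The fibroblast list had 3 of 8 genes, with 25.36 to 70.39 CPM in NC IN and 26.21 to 45.62 in KD IN. Sums over a list do not show how its genes share a difference. The macrophage list includes 1 member (at CD68) and the HEK293-type list none; the part of this difference between the groups in the KD against NC results below was not tested.

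The member regions together took 40315 IP reads (0.409% of the IP reads in regions) and 4026 input reads (0.0664% of the input reads). Reads per member over the 6 IP libraries ran from 30 to 447 with a median of 44 and quartiles of 36 and 61. Input reads per member ran from 1 to 10 with a median of 5, and no region of the whole table had 0. Between 677 and 705 of the 716 members had a read in any 1 IP library, against 267 to 344 in any 1 input library. In NC IN, 108 members had no read in the 3 libraries, and in KD IN, 142 had none. After scaling to the reads in regions, IP reads per input read had a median of 5.78 among members, a highest value of 49.97 at SLC17A7, and a lowest of 1.84, which is also the lowest that the rule admits. The median over all regions with at least 30 IP reads was 1.46. In the authors' deposited table the fold enrichment of the members had a median of 14.7 and ran from 2.67 to 135.0, against a median of 5.39 in all regions with at least 30 IP reads. These values chose the members and are given as a description.

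**Figure D1:**
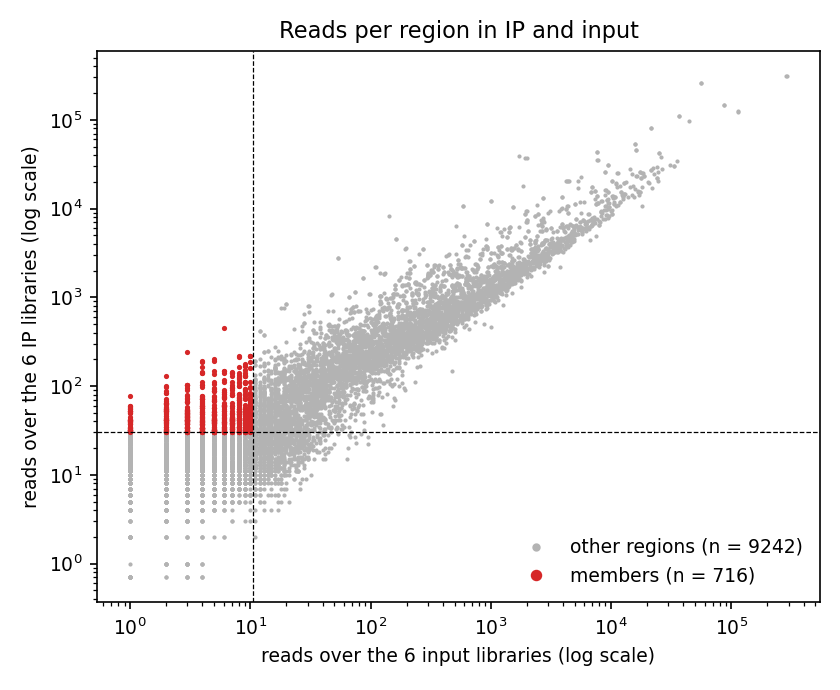
Reads per region over the 6 input libraries (x axis, log scale) against reads over the 6 IP libraries (y axis, log scale), with 716 members in red and 9242 other regions in grey; dashed lines mark the rule, and regions with no IP read are drawn at the bottom edge. The members fill the upper left corner and continue the cloud of other regions without a gap at either line.

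The cloud is continuous at both edges of the rule. Members with exactly 30 IP reads numbered 42, and 43 regions had 29 IP reads and at most 10 input reads. Members with exactly 10 input reads numbered 64, and 79 regions had 11 input reads and at least 30 IP reads. Just inside the first edge were MIB2 (30 IP and 7 input reads), D2HGDH (30 and 2) and SDC1 (30 and 3). Just outside were CEP164, SIRT3 and EHD2, each with 29 IP reads and 1 input read. At the second edge, HOXD13 (221 IP reads) and TRHDE (218) had 10 input reads and were members, and PIAS4 (192) and HGH1 (174) had 11 and were not.

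Many members are the same stretch of RNA called more than once, since the authors' peaks are named for KD or for NC. Members named for KD numbered 376 and those for NC 340, and 60.9% overlapped a peak of the other set. The 716 members formed 556 overlapping clusters, of which 401 held 1 member, 151 held 2 and 4 held more. A further region outside the rule overlapped 139 of these clusters. Among the 3103 other regions whose IP reads were no more than the highest member's, 40.7% overlapped a peak of the other set. These are the other regions in the members' IP range below. They share the members' limits but are not matched in depth. Their median was 137 IP reads with quartiles of 70.5 and 254, against 44, 36 and 61 in the members.

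Of the 716 members, 631 (88.1%) overlapped 1 protein-coding gene, 59 overlapped several and 26 none. Of the last, 5 lay in long non-coding RNA genes and 20 in no gene of the RefSeq table. The gene's strand was known for 510 of the 631 single-gene members, and 500 of them (98.0%) lay on it. The other 10 lay on the opposite strand of 8 genes, among them SLC48A1, TUBG1, RNF10 and RAPH1, and their names say only that they overlap. In 25 genes members lay in several separate places, with 3 places in MYO15B and 2 in each of the others. Chromosome 19 carried 92 members (12.8%), against 10.8% of all regions with at least 30 IP reads.

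Members had widths like those of other regions. Their median width was 209 bases with quartiles of 121 and 330, and widths ran from 59 to 984 bases. The regions with at least 30 IP reads had a median of 211 bases, and the other regions in the members' IP range one of 181 bases. Widths over 500 bases occurred in 11.2% of members and in 15.7% of regions with at least 30 IP reads. The widest single-gene members lay in GPT (984 bases), MYH7B (941), TSC1 (924), LIG4 (923) and HSPB6 (922), which were named here after their widths were seen.

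Along the gene body, members gathered at the 5′ end. With each gene body cut into 10 equal parts, 293 of the 631 single-gene members (46.4%, exact 95% interval 42.5 to 50.4) had their middle in the first part, the first 10%, and 20.0% (16.9 to 23.3) in the last, while each part between held 2.06% to 7.13%. The other regions with at least 30 IP reads had 41.1% (39.7 to 42.4) in the first part and 21.8% (20.7 to 23.0) in the last. Limited to the members' IP range, they had 44.0% (42.2 to 45.9) and 23.5% (22.0 to 25.1), so the interval of the first part overlaps that of the members. Intervals cover counting error only, reads and overlapping regions being no independent molecules. The reference held no exons, so exon, intron and UTR were not assigned.

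**Figure D2:**
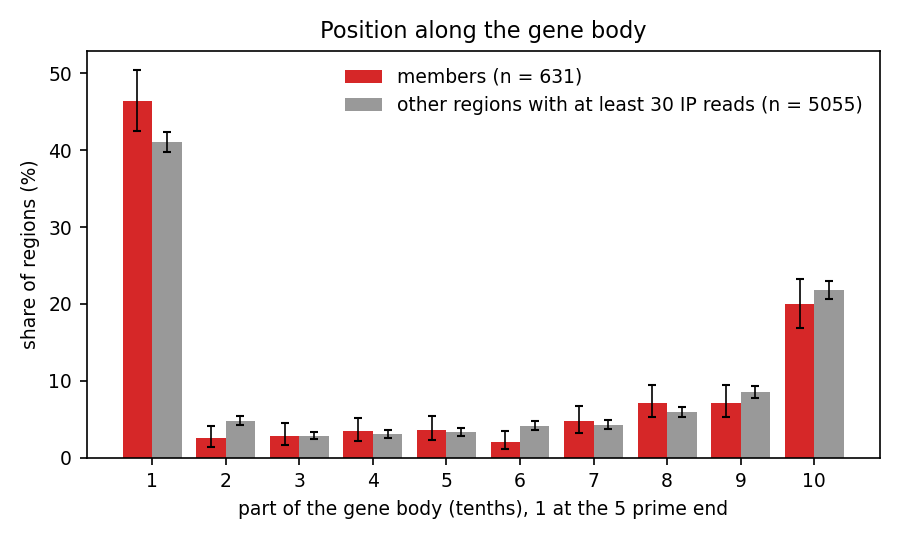
Share of regions (y axis, percent) by part of the gene body (x axis, 10 equal parts from the 5′ end), for 631 members (red) and 5055 other regions with at least 30 IP reads (grey) that overlap 1 protein-coding gene; error bars are exact 95% binomial intervals. Both sets peak in the first part, with 46.4% of members and 41.1% of the others, and again in the last.

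Members were also set against the annotated start of their gene. Of the 500 members on their gene's strand, 135 (27.0%) covered the RefSeq start, 235 (47.0%) lay within 500 bases of it, and 208 (41.6%) lay more than 1000 bases downstream. The same shares over the 4525 such regions with at least 30 IP reads were 23.4%, 40.3% and 50.6%. Over the 2275 such other regions in the members' IP range they were 22.5%, 42.2% and 47.6%. Exactly at the start began 61 members (12.2%) and 394 of the 4525 regions (8.71%). The peak caller is not named. Whether exact starts come from the reads or from the way peaks were bounded was not tested. In 138 members (27.6%) some bases lay upstream of the listed start. These counts used 1 start per gene, the last listed, although some genes have several windows in the RefSeq table. Members at another listed start only were thus not counted as at a start. The MSH6 member covers the start used and holds 0 bases of another MSH6 window. The HOXD13 member begins at the start used and yet falls in part 7 of the gene body. There the RefSeq gene body opens further upstream.

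The member with most IP reads lay at the other end of its gene. PCSK6 encodes a proprotein convertase, and its member (chr15:101312189-101313077, minus strand) lies in the last 10% of the gene body. It had 86, 75 and 49 reads in NC IP, 89, 71 and 77 in KD IP, and 6 input reads, all in KD IN. SLC17A7, the vesicular glutamate transporter VGLUT1, had 35, 55 and 44 reads in NC IP and 53, 37 and 20 in KD IP over a member of 901 bases that covers its start, with 3 input reads. CATSPERG, a subunit of the sperm calcium channel, had 38, 38 and 34 reads in NC IP and 39, 28 and 34 in KD IP. In all 3 genes the groups overlapped, and each member was read in every IP library.

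The KD and NC groups were compared in the IP libraries with edgeR's quasi-likelihood test over the 6204 regions with at least 30 IP reads. Here a level is CPM over the tested regions after TMM scaling, a log2 change is KD IP over NC IP given with its standard error, and a member was called at a Benjamini-Hochberg adjusted p under 0.05. The rule summed both groups and so did not use this contrast, although the authors' peaks were called separately for KD and NC. Since input is almost empty in the members, a change in IP cannot be divided into a change in RNA level and one in m7G.

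Of the 716 members, 141 (19.7%) were called, 105 lower in KD (14.7%) and 36 higher (5.03%). Overlapping regions share reads and count separately here. The called members formed 117 overlapping clusters, 85 with lower and 32 with higher members. Those over 1 coding gene lay in 67 genes for the lower and 25 for the higher. In the background of all tested regions, 43.0% were called, 22.0% lower and 21.0% higher. Among the other regions in the members' IP range 34.4% were called. The members' share was larger at higher read numbers, from 12.2% at 30 to 39 IP reads through 17.5% at 40 to 59 and 30.9% at 60 to 99 to 37.5% at 100 or more. Other regions in the members' IP range gave 9.32%, 21.6%, 27.7% and 42.0% in these bins, and the exact 95% intervals of the 2 sets overlapped in each bin. With all 12 libraries in 1 fit the count fell to 70 (58 lower and 12 higher). Among the called, the median change was 5.11-fold for the lower members and 3.87-fold for the higher, and the smallest were 1.81-fold and 1.84-fold. These folds describe members that passed the test, and those of other called regions were not summarized.

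Members leaned toward lower values in KD. Their median log2 change was -0.12, against 0.0042 over all tested regions, and 54.5% were below 0. The other regions in the members' IP range leaned the same way, with a median of -0.08, 53.3% below 0, and 20.5% called lower against 13.9% higher. Summed over all members, CPM was 4722.8, 4555.3 and 4289.4 in NC IP and 3768.9, 3560.3 and 3850.0 in KD IP, so the sums did not overlap. All 3 KD libraries lay below all 3 NC libraries in 161 members (22.5%) and above them in 74 (10.3%); the other regions in the members' IP range gave 26.6% and 18.9%, and 52.5% of all tested regions had groups that did not overlap in either direction. The lean followed the set in which a peak was called. Members named for NC that met no KD peak had a median of -0.72, with 31.1% lower and 3.70% higher, and those named for KD that met no NC peak a median of 0.24, with 6.90% lower and 8.97% higher. By their names, such regions were seen by the peak call in 1 group alone. The same split over all tested regions gave 28.7% lower and 9.77% higher (median -0.39) for NC and 14.8% and 23.6% (0.17) for KD. In the members' IP range the other regions gave 26.2% and 5.33% (-0.42) for NC and 14.3% and 20.8% (0.16) for KD. Members shared by both sets had medians of -0.21 (named for KD) and -0.03 (named for NC). The part of the peak calls in the lean was not tested.

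**Figure D3:**
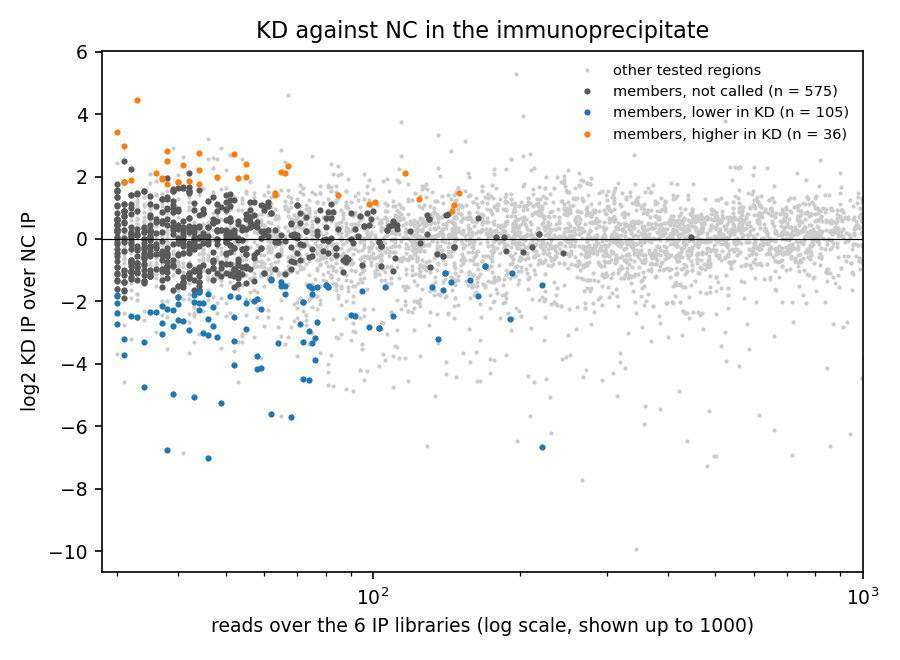
Log2 change of KD IP over NC IP (y axis) against reads over the 6 IP libraries (x axis, log scale, shown up to 1000), with members not called (575, dark grey), lower in KD (105, blue) and higher in KD (36, orange) over the other tested regions (light grey). Called members occur at every read number, and those far below 0 outnumber those far above it.

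The few input reads of the called members lay mostly on the same side as the IP change, which was not tested. The 105 lower members held 457 reads in NC IN and 149 in KD IN, and 75 of them had more reads in NC IN against 22 with more in KD IN. The 36 higher members held 71 reads in NC IN and 156 in KD IN, with 23 richer in KD IN and 10 in NC IN. The 575 members that were not called held 1595 and 1598. The totals over all regions were 2925728 reads in NC IN and 3133220 in KD IN.

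HOXD13, a homeobox factor of limb and digit patterning, stood out among the members lower in KD. Its member (chr2:176092721-176092989, plus strand) had 87, 77 and 55 reads in NC IP and 0, 1 and 1 in KD IP. No KD library approached an NC library, with 46.6 ± 7.39 CPM in NC and 0.402 ± 0.354 in KD (SD, n = 3). The log2 change was -6.65 ± 0.49 (edgeR adjusted p = 2.6e-09), and the ratio of scaled reads was 120.2 with an exact 95% counting interval of 32.87 to 998.5. Its 10 input reads were all in NC IN, as 2, 4 and 4.

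At SMARCD3, a subunit of the SWI/SNF chromatin remodelling complex, all KD IP libraries were at 0. The NC IP libraries had 14, 20 and 12 reads, so NC was at least 16.8-fold higher, taking 3 counts over the KD group as the limit that a count of 0 allows (edgeR adjusted p = 4.8e-05). This member lies in the last 10% of its gene and had 8 input reads in NC and 2 in KD. In the authors' deposited table its peak is named for KD, with a fold enrichment of 6.58, although the KD IP counts are 0. The sources used here do not explain this. Among all called members, 38 of the 105 lower ones were named for KD and 15 of the 36 higher ones for NC.

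The next lowest log2 changes came from members with 1 to 3 reads in KD IP. LSAMP, an adhesion protein of limbic neurons, had 36, 20 and 11 reads in NC IP and 1, 0 and 0 in KD IP, a ratio of 73.5 (12.8 to 2947; edgeR adjusted p = 1.5e-05). APC2, a relative of the tumour suppressor APC in Wnt signalling, had 19, 20 and 22 reads and 1, 0 and 0, a ratio of 66.9 (11.6 to 2687; edgeR adjusted p = 1.2e-05). KIF1A, a motor of axonal transport, had 30, 13 and 28 reads and 0, 1 and 2, a ratio of 26.0 (8.53 to 128.9; edgeR adjusted p = 2.8e-05). HAND2, a transcription factor of heart and neural crest, had 10, 13 and 10 reads and 0, 1 and 0, a ratio of 36.2 (6.06 to 1473; edgeR adjusted p = 3.6e-04). In each of these genes every NC library lay above every KD library, as the naming rule required. The Notch regulator NRARP (16, 7 and 19 reads against 1, 0 and 0) and the region opposite to SLC48A1, a haem transporter gene (20, 16 and 12 against 1, 0 and 0), had ratios of 46.1 (7.83 to 1863) and 52.7 (9.01 to 2123).

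The members higher in KD rested on fewer reads. IBSP, bone sialoprotein, had 0, 1 and 0 reads in NC IP and 10, 9 and 13 in KD IP over 60 bases in the last 10% of the gene. The ratio was 29.2 (4.87 to 1187) and the log2 change 4.46 ± 0.97 (edgeR adjusted p = 9.2e-04), and all 7 input reads were in KD IN. ROCK2, a kinase that acts below RhoA on the actin cytoskeleton, had 1, 3 and 2 reads in NC IP and 12, 17 and 17 in KD IP (log2 change 2.73 ± 0.65, edgeR adjusted p = 0.0020). RTN1, a reticulon of the endoplasmic reticulum, had 3, 4 and 1 reads and 12, 17 and 18 (2.39 ± 0.62, edgeR adjusted p = 0.0039). These 3 genes showed no overlap between the groups, as the naming rule required.

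KCMF1, a ubiquitin ligase, had 3, 4 and 3 reads in NC IP and 19, 23 and 15 in KD IP, a log2 change of 2.32 ± 0.53 (edgeR adjusted p = 0.0014). ITPR1, the IP3-gated calcium channel of the endoplasmic reticulum, had 5, 2 and 4 reads and 21, 15 and 18 (2.14 ± 0.54, edgeR adjusted p = 0.0033). Both members lie over the gene's start, as their sequences above show, and both kept their call in each of the 6 fits without 1 library. The calls of 3 further genes did not. Without KD IP replicate 2, GIMAP6 (2, 0 and 0 reads against 6, 19 and 3) had an adjusted p of 0.10 and CAST, the calpain inhibitor calpastatin (3, 1 and 0 against 9, 22 and 3), one of 0.12 by edgeR. AP5B1, of an endosomal adaptor complex (0, 2 and 3 against 9, 12 and 12), had an adjusted p of 0.059 by edgeR without NC IP replicate 1. GIMAP6 also lost its call without NC IP replicate 3 (0.055), and CAST without NC IP replicate 2 (0.051) or 3 (0.069).

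**Figure D4:**
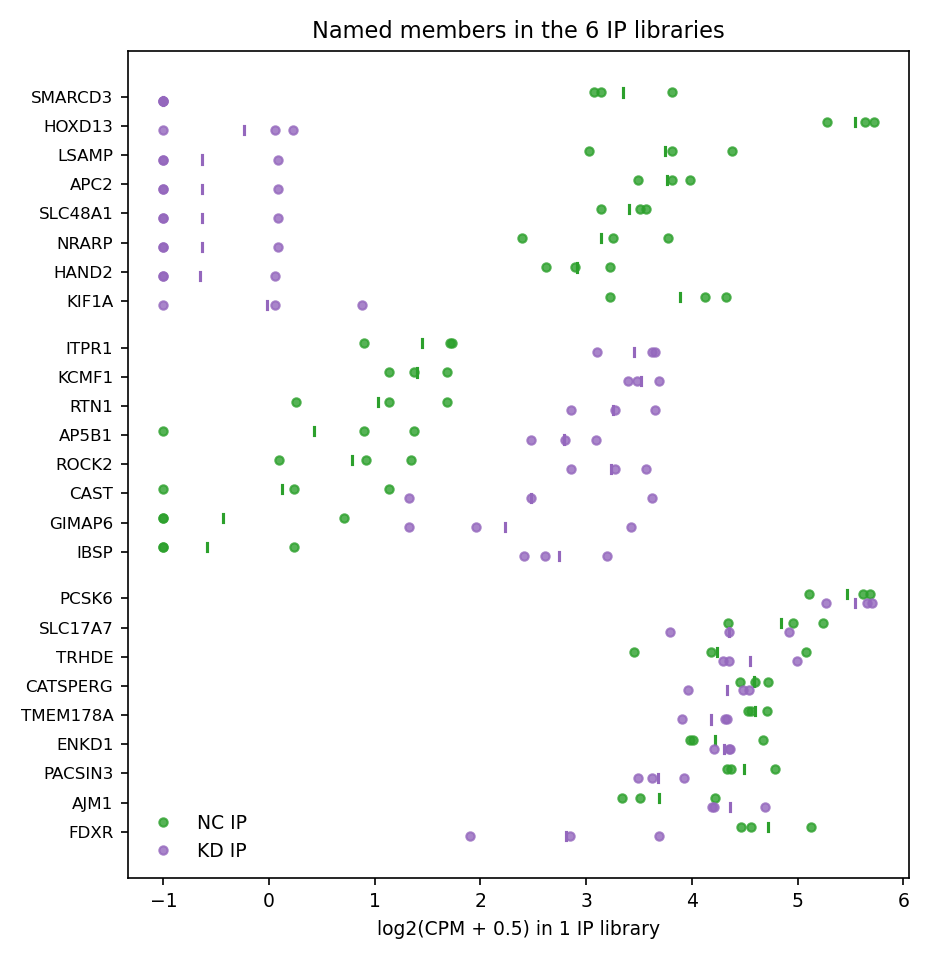
Level in each IP library (x axis, log2 of CPM + 0.5) of the named members with the lowest log2 changes (top), the largest (middle) and the most IP reads (bottom); each point is 1 library, green for NC and purple for KD, and the bar is the mean of 3. Groups do not overlap in the top and middle blocks, by the naming rule, and overlap in most of the bottom block.

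Besides HOXD13, 2 of the 10 genes with most IP reads were lower in KD. FDXR, the mitochondrial ferredoxin reductase of steroid and iron-sulfur metabolism, had 61, 34 and 31 reads in NC IP and 22, 6 and 10 in KD IP (log2 change -1.83 ± 0.39, edgeR adjusted p = 8.0e-04). PACSIN3, which bends membranes in endocytosis, had 48, 29 and 29 reads and 21, 20 and 22 (-0.86 ± 0.31, edgeR adjusted p = 0.029). The PACSIN3 call ended in the fit of 12 libraries (adjusted p = 0.17), by DESeq2 (0.065) and without NC IP replicate 1 (0.13), KD IP replicate 1 (0.069) or KD IP replicate 2 (0.099). The others did not pass. TMEM178A had 40, 34 and 37 reads in NC IP and 35, 27 and 29 in KD IP, and ENKD1 27, 23 and 36 and 32, 37 and 30. TRHDE, which degrades thyrotropin-releasing hormone, had 59, 26 and 15 and 34, 37 and 47. AJM1, of the apical junction, had 17, 16 and 26 and 45, 33 and 27, with an adjusted p of 0.11 by edgeR and of 0.044 without NC IP replicate 3.

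Members were also grouped by gene symbol, which sorts names and not functions, with lists chosen when earlier results of these data were known. Genes named as channels, transporters or TMEM proteins held 35 members, of which 11 were lower, 1 higher and 23 not called, with a median log2 change of -0.42; the 192 tested regions of that list had 42 lower and 36 higher and a median of 0.08. The lower ones lay in KCNAB2, SLC35D4, SLC35F1, SLC48A1, TMEM9, TMEM25, TMEM121, TMEM161A and TMEM191B. KCNAB2, a potassium channel subunit, held the higher one too, the 2 regions being separate: one had 2, 3 and 4 reads in NC IP and 13, 14 and 8 in KD IP, the other 9, 7 and 7 and 2, 2 and 3. Their log2 changes were 1.76 ± 0.63 and -1.78 ± 0.69 (edgeR adjusted p = 0.029 and 0.043). Neither call was firm: the first ended without KD IP replicate 1 (adjusted p = 0.078) or 2 (0.083) or NC IP replicate 1 (0.10) or 2 (0.058), the second without any library but KD IP replicate 3 (0.062 to 0.13), and both ended by DESeq2 (0.065 and 0.11) and in the fit of 12 libraries (0.14 and 0.12). Across the 25 genes with members in several places, the log2 changes had the same sign in 19.

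Zinc finger genes held 30 members. By edgeR 0 were lower in KD (0 at an unadjusted p under 0.05, and 0 by DESeq2), and 2 overlapping regions of ZNF469 were higher, the larger with 13, 11 and 10 reads in NC IP and 36, 21 and 33 in KD IP (log2 change 1.28 ± 0.38, edgeR adjusted p = 0.0098; 0.12 in the fit of 12 libraries). The zinc finger median was -0.39, against -0.08 over the 169 tested regions of the list, in which 33 were lower and 34 higher. Developmental transcription factors held 9 members in 7 genes. Only HOXD13 passed there, beside 21 lower and 21 higher of the 75 tested regions of that list, and POU4F2, a factor of retinal ganglion cells, had 6, 10 and 9 reads in NC IP and 22, 17 and 14 in KD IP (0.92 ± 0.46, edgeR adjusted p = 0.12).

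Signalling genes gave 4 lists. Over all tested regions these lists held more higher than lower calls: 26 higher and 4 lower of 48 for secreted factors, 20 and 5 of 56 for receptors, 57 and 17 of 157 for kinases and phosphatases, and 38 and 17 of 129 for small GTPase regulation. Among 4 members with secreted-factor symbols (IL4R, a receptor, falls in by its prefix), the 2 overlapping regions of FGF2, fibroblast growth factor 2, were lower: the larger had 14, 24 and 17 reads in NC IP and 4, 5 and 11 in KD IP (log2 change -1.57 ± 0.52, edgeR adjusted p = 0.020). This FGF2 call ended in the fit of 12 libraries (0.11) and in 4 of the 6 fits that left out 1 library: KD IP replicate 1 (0.071), KD IP replicate 2 (0.073), NC IP replicate 2 (0.11) and NC IP replicate 3 (0.057). Of 11 members with receptor symbols, 2 were lower, in ADRA2C, an adrenergic receptor (16, 12 and 20 reads against 2, 5 and 0; -2.87 ± 0.69, edgeR adjusted p = 0.0020), and in EPHA10, an ephrin receptor (24, 9 and 11 against 3, 2 and 6; -2.04 ± 0.62, edgeR adjusted p = 0.011). The EPHA10 call ended without NC IP replicate 1 (0.087) or KD IP replicate 2 (0.051) and in the fit of 12 libraries (0.079). The 16 members with kinase or phosphatase symbols gave 2 lower regions, both of PPP1R3E, a glycogen-targeting subunit of protein phosphatase 1 (23, 13 and 11 against 2, 2 and 1 in the larger); AKT1 (13, 10 and 10 against 18, 27 and 16), PIK3CA and MAP3K12 did not pass. Of the 18 members of the small GTPase list, 2 overlapping regions of ARHGAP44, a GTPase-activating protein, were lower (44, 27 and 19 against 2, 6 and 5 in each; -2.86 ± 0.48, edgeR adjusted p = 6.2e-05) and 1 of PLEKHG2 was higher (3, 2 and 2 against 9, 7 and 14; edgeR adjusted p = 0.028). The PLEKHG2 call ended by DESeq2 (0.062), in the fit of 12 libraries (0.10) and without KD IP replicate 3 (0.11) or NC IP replicate 1 (0.059), 2 (0.069) or 3 (0.075).

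The ubiquitin list held 20 members, of which the 2 overlapping regions of USP27X, a deubiquitinase, were lower: the larger had 49, 28 and 26 reads in NC IP and 12, 15 and 9 in KD IP (log2 change -1.63 ± 0.35, edgeR adjusted p = 8.3e-04), and its 8 input reads were all in NC IN. FBXO11 (24, 29 and 12 against 11, 15 and 20) and SYVN1 (20, 16 and 17 against 12, 14 and 9) did not pass. Of the 131 tested regions of the ubiquitin list, 15 were lower and 22 higher. The chromatin and RNA methylation list held 13 members with 2 lower, SMARCD3 and HDAC6, the cytoplasmic tubulin deacetylase (44, 31 and 35 against 14, 22 and 12; -1.33 ± 0.32, edgeR adjusted p = 0.0022; 0.066 in the fit of 12 libraries). Of the tested regions of that list, 31 were lower and 15 higher of 136. TRMT61A, a tRNA methyltransferase, had a member that did not pass. Of the 2 members of the protease and adhesion list, PCSK6 and ADAMTSL4, 0 passed the edgeR test (0 at an unadjusted p under 0.05, and 0 by DESeq2), beside 6 lower and 39 higher of the 80 tested regions of that list.

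Regions over several or no coding genes carried calls too. Of 59 members over several genes, 20 were lower and 4 higher, and of 26 over none, 2 were lower and 2 higher. Overlapping regions count separately here. Over all tested regions 22.0% were lower and 21.0% higher. Calls among the 423 tested regions over several coding genes and the 95 over none were not counted, so these numbers have no background of their own kind. The largest, where KIAA0753 and LOC122526780 overlap, had 72, 54 and 35 reads in NC IP and 10, 9 and 10 in KD IP in one region (chr17:6640067-6640456, minus strand) and 62, 65 and 32 and 32, 17 and 13 in another (chr17:6636630-6637557), with log2 changes of -2.57 ± 0.33 and -1.49 ± 0.33 (edgeR adjusted p = 3.6e-06 and 0.0011). They were named here after their values were seen, and their reads cannot be assigned to either gene.

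Input was thin in the members but not always in the genes that hold them. Of the 464 genes, 217 had another region away from the members, and in 110 of these genes such a region had at least 30 input reads, with a median of 178 and a highest value of 7589 in YJEFN3. In these genes input reads lay at one place of the gene body and hardly at the member's. Without exons or isoforms in the reference, whether both places lie on 1 transcript cannot be told. In those 110 genes, members lay in the first 10% in 42 and the other region in the last 10% in 37. The change in that other region's input was then set beside the member's change in IP, for the 19 of these 110 genes with a called member and over 3 input reads of the other region in each group. With 1 member taken per gene, the sign was the same in 18. The exception was CD68, the lysosomal glycoprotein of macrophages: its member had 9, 13 and 4 reads in NC IP and 2, 2 and 0 in KD IP (log2 change -2.73 ± 0.83, edgeR adjusted p = 0.011, and 0.060 without NC IP replicate 2), while its other region had 265 input reads in NC and 492 in KD, a scaled log2 difference of 0.79. Below the limit of 30 input reads, MYO15B also had opposite signs, with 13 input reads in NC and 7 in KD (-0.99 beside 1.09 in the member). KCNAB2 counted as the same sign by its member at 1.76 (0.93 in input), but its other called member, at -1.78, had the opposite sign. The input differences of TCEA2 and NR2F1, both among the 18, were small (-0.07 and -0.006). Among those of the 110 genes whose member was not called, same and opposite signs both occurred and were not counted. The 18 of 19 thus has no background share beside it.

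The other regions of KIF1A had 138 input reads in NC and 5 in KD, a scaled log2 difference of -4.89 beside -4.52 in the member. EN2, a homeobox gene of the midbrain and hindbrain, had 114 and 30 (-2.03 beside -4.02), and MSH6, of DNA mismatch repair, 942 and 286 (-1.82 beside -2.81). In these 3 genes input and IP both were lower in KD. CFLAR, an inhibitor of caspase-8, had 51 input reads in NC and 145 in KD (1.41 beside 2.11), and CLIP2, a microtubule-binding protein, 237 and 507 (0.998 beside 1.75). The CLIP2 call (edgeR adjusted p = 0.036) ended in each of the 6 fits without 1 library (0.052 to 0.094), in the fit of 12 libraries (0.14) and by DESeq2 (0.084). Input differed little in TCEA2, a transcription elongation factor, with 155 and 158 reads (-0.07), and in NR2F1, a nuclear receptor, with 15 and 16 (-0.006). The unscaled IP reads of these other regions were higher in KD: 358 in NC and 467 in KD for TCEA2, and 90 and 258 for NR2F1. Both members were lower in KD IP, that of NR2F1 at -1.52. The TCEA2 member had 34, 26 and 32 reads in NC IP and 8, 5 and 5 in KD IP (log2 change -2.46 ± 0.41, edgeR adjusted p = 5.7e-05). These pairs share their gene and libraries, and no test was made over them.

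**Figure D5:**
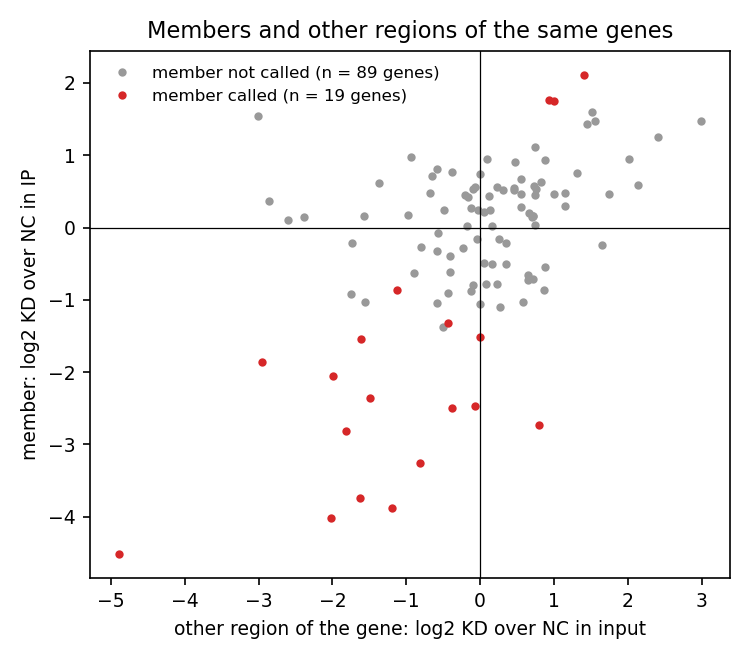
Log2 difference of KD over NC in input for another region of the same gene (x axis) against the log2 change of the member in IP (y axis), for 108 genes whose other region had at least 30 input reads and reads in both groups; red marks the 19 genes with a called member and grey the other 89. KIF1A lies at the lower left, at -4.89 and -4.52, and CD68 is the red point at lower right.

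The authors' deposited table gives another quantity, the log2 change between the groups in IP relative to input, and its values in the members followed the input zeros. In the authors' deposited table all 142 members with no KD input read had a log2 change over 5, with a median of 10.44, and all 108 members with no NC input read had one under -5, with a median of -10.30. Of the 466 members with input reads in both groups, 2 were over 5 and 3 under -5, and the median was -0.06. The deposited sign could thus run against the IP reads. HOXD13 is listed at 10.07 with an adjusted p of 0.91 in the authors' deposited table, while its IP reads fell from 219 to 2. Of the 105 members lower in KD IP, 49 have a deposited log2 change above 0, and of the 36 higher ones 16 have one below 0. The authors' deposited table calls 0 of the 716 members changed and 78 of all 9958 regions at an adjusted p under 0.05; 10 members have a deposited unadjusted p under 0.05.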

How the data were processed

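Values came from 12 libraries. The submitters' processing notes name fastp 0.23.4 and the build GRCh38; aligner, peak caller and counter are not given in the sources used here. The authors deposited raw read counts per region and library, a fold enrichment per region (a ratio, repeated as the score), p-values and adjusted p-values of each peak and of the change between groups, and a log2 change. The deposited length is in bases.

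Deposited starts count from 0: 218 plus-strand regions start 1 base before their gene's first base and 2 at it. Starts were moved by 1 base and widths recomputed. Genes were named by overlap with RefSeq gene bodies of GRCh38.p14 on either strand, and strand and starts came from RefSeq promoter windows. Where a gene had several windows, distances to the start used the last listed.

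Members and lists were chosen with earlier results of these data known. KD and NC were compared over the 6 IP libraries with edgeR 4.0.16 (R 4.3.3; TMM scaling, quasi-likelihood test, two-sided, Benjamini-Hochberg over 6204 regions with at least 30 IP reads), a minimum every member meets. The procedure was tested on simulated data. Replicate numbers did not pair the libraries: same-numbered deviations correlated at -0.061, 0.028 and -0.02. Counting intervals are exact at 95%. A fold against a group at 0 used a floor of 3 counts over the group.

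Named genes are, 1 region per single protein-coding gene: the 10 with most IP reads; among called members without overlap between groups the 8 lowest and 8 highest log2 changes; and up to 3 per list by IP reads. Genes outside this rule were named after their values were seen. Alternatives comprised DESeq2 1.42.0, other scalings, filters, thresholds and membership limits, 12 libraries in 1 fit, a replicate block, 1 region per cluster and leaving out each library.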

Additional observations from a re-analysis of the deposited data

How the results depend on the processing

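The excess of lower over higher calls held under every alternative run. Called members numbered 141 as reported (105 lower, 36 higher). They numbered 78 (63 and 15) under filterByExpr, which kept 210 members with a median log2 change of -0.24, and 70 (58 and 12) with 12 libraries in 1 fit. DESeq2 called 112, with 21 higher. With at most 5 input reads the rule gave 360 members and 69 calls (56 and 13), and with at least 60 IP reads 187 members and 62 calls (49 and 13), a median width of 300 bases and 51.5% in the first 10%. One region per cluster left 463 members. An adjusted p under 0.01 left 74 calls (62 and 12), and one under 0.10 gave 62 higher. The filterByExpr fit, the stricter membership limits and 1 region per cluster held fewer members. The causes of the smaller counts were not tested. With the replicate block the count was 121 (96 and 25), and the calls of PLEKHG2, CLIP2 and both KCNAB2 regions ended (adjusted p of 0.057 to 0.084 by edgeR). Leaving out 1 library gave 105 to 132 calls, 80 to 103 lower and 24 to 31 higher, and medians of -0.193 to -0.098. Of 750 values of 64 named members, 673 kept their direction and side of the threshold. Only values of members that were not called changed sign: KDM2A under filterByExpr (-0.001), and without 1 library PCSK6 (-0.107 to 0.184), TRHDE (-0.158 to 0.724), ENKD1 (-0.072 to 0.314), SLC38A10 (-0.134 to 0.664), BMP6 (-0.66 to 0.317), GRIK2 (-0.578 to 0.166), MAP3K12 (-1.092 to 0.033), CHD9NB (-0.417 to 0.286), KDM2A (-0.142 to 0.232), RAB40C (-0.074 to 0.51) and TBC1D10B (-0.13 to 1.093), as lowest and highest log2 changes. Depth is low in these regions: the members' IP reads over 6 libraries have quartiles of 36 and 61. Of the members 19.7% were called, against 43.0% of all tested regions, and the part of depth in this difference was not tested. Input of 1 to 10 reads cannot show whether RNA level or m7G changed.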
